A study of Mus musculus with 16 samples.

Results

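Smooth muscle cells and pericytes, together called mural cells, wrap the blood vessels of the heart and great arteries. In hearts lacking *Chd7* in the mesoderm, 10 genes used as mural markers were followed here, although several are also active in other heart cells. The genes were *Acta2*, *Tagln*, *Myh11*, *Cnn1*, *Smtn*, *Mylk*, *Pdgfra*, *Pdgfrb*, *Cspg4* and *Eln*, taken by name from the array annotation. Each of the 10 had exactly 1 probe set that named it alone, out of 19937 genes that could be assigned at least 1 such probe set. *Chd7* encodes a chromatin remodeller that is mutated in CHARGE syndrome.

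RNA from single whole hearts of C57BL/6 mouse embryos was hybridised to Mouse Gene 1.0 ST arrays of Affymetrix, 1 heart to an array, giving 16 arrays in 4 groups of 4 hearts. The groups were Chd7fl/fl;Mesp1-Cre (mutant) hearts at E13.5, control hearts at E13.5, mutant hearts at E11.5 and control hearts at E11.5. Mesp1-Cre recombines in the anterior mesoderm, which gives rise to both heart fields and most cardiac cell types. The cardiac neural crest, which supplies the smooth muscle of the outflow vessels, is not a target of this Cre. In the paper the control hearts are Chd7+/+;Mesp1-Cre, but the sample labels read WT and give a cross of Chd7fl/+;Mesp1-Cre with Chd7fl/fl mice, which yields no Chd7+/+ embryos, so the exact control genotype is not settled. A whole heart mixes all cardiac cell types, so fewer cells of a type and less RNA per cell cannot be told apart. The p-values measure the spread between these single hearts, and whether hearts of a group shared a litter is not given in the sources used here.

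Vascular smooth muscle contracts through smooth muscle actin (*Acta2*) and smooth muscle myosin (*Myh11*), which myosin light chain kinase (*Mylk*) activates. Transgelin (*Tagln*), calponin (*Cnn1*) and smoothelin (*Smtn*) bind the actin filaments. In the embryo, *Acta2*, *Tagln* and *Cnn1* are also made by young cardiomyocytes, whereas *Myh11* is held to be the most specific of these genes for smooth muscle. Mural cells are recruited to endothelial tubes when endothelial PDGF-B binds the receptor encoded by *Pdgfrb*. *Cspg4* encodes NG2, a surface proteoglycan of pericytes, *Pdgfra* encodes the second PDGF receptor, found on mesenchyme and epicardium-derived cells, and *Eln* encodes elastin, the elastic protein of artery walls and valves.

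The deletion was visible in the arrays. The brightest of 30 *Chd7* probe sets lay at 8.88 to 9.07 in mutant hearts and at 9.83 to 10.30 in control hearts at E13.5 on the log2 scale (log2 FC −1.08 ± 0.14 (SE), limma adjusted p = 0.0209), and at 9.16 to 9.73 against 10.64 to 10.89 at E11.5 (log2 FC −1.29, adjusted p = 0.00132). Over the 30 probe sets the log2 FC ran from −1.58 to −0.45 at E13.5 and from −1.72 to −0.41 at E11.5. At an adjusted p under 0.05 and a fall of over 0.5, 4 of the 30 passed at E13.5 and 25 at E11.5. Of 10 cardiomyocyte markers, 9 ranked at or above percentile 95 of all probe sets by mean signal. The members' signals ranked between percentile 50.4 (*Myh11*) and 99.8 (*Acta2*), and all lay above the dim probe sets. There were 3 arrays that stood apart from the others of their stage. In mutant E11.5 replicates 3 and 4 and control E13.5 replicate 1, 27, 38 and 21 genes lay more than 1 log2 unit above every other heart of the stage, against 0 to 5 genes in each of the other hearts. Y-linked genes were high in 1 of 4 mutant and 2 of 4 control hearts at E13.5, and in 2 of 4 mutant and 4 of 4 control hearts at E11.5.

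The first question was whether loss of *Chd7* altered the 10 genes in whole hearts. A gene was called when its Benjamini-Hochberg adjusted p in limma was under 0.05 and its log2 FC over 0.5 in size. None of the 10 genes was called in mutant against control hearts, at E13.5 (0 of 10, where 0.0451% of all genes were called) or at E11.5 (0 of 10, where 0.251% were called). At an unadjusted p under 0.05 the counts were 0 of 10 at E13.5, beside 3.94% of all genes, and 1 of 10 at E11.5 (*Pdgfrb*), beside 9.34%. Log2 FC values ran from −0.20 to 0.18 at E13.5 and from −0.63 to 0.51 at E11.5. Hearts of the 2 genotypes were fully apart for 1 of 10 genes, again *Pdgfrb*, at each stage, beside 4.08% of all genes at E13.5 and 3.93% at E11.5.

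**Figure D1:**
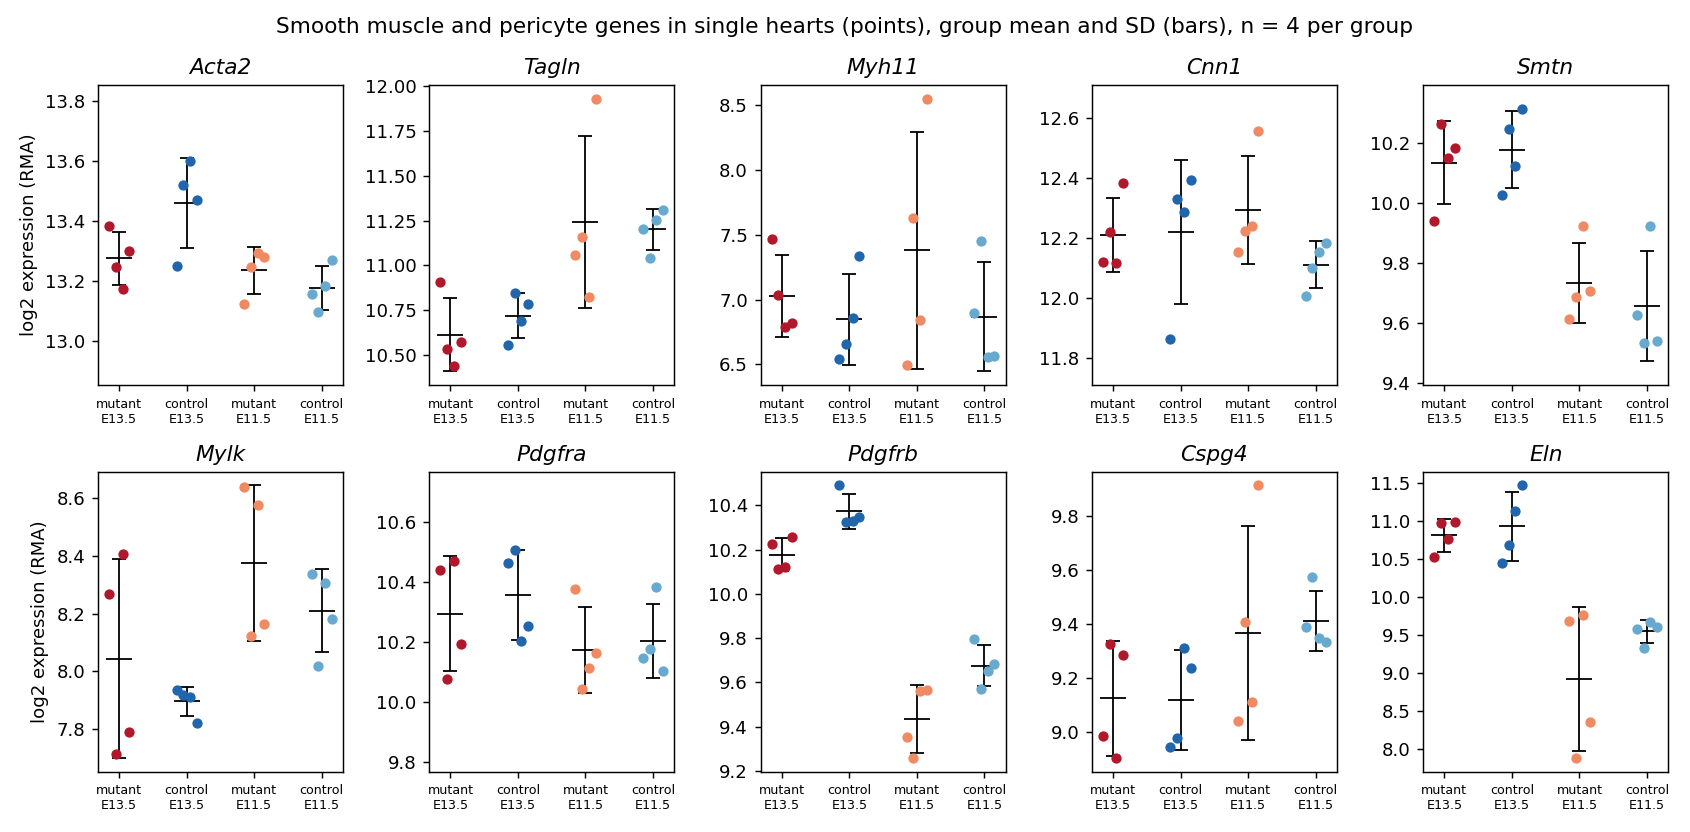
Log2 expression (y axis, RMA values, own scale for each gene) of the 10 genes in single hearts (points), with the group mean and SD (bars, n = 4) for mutant and control hearts at E13.5 and E11.5. *Pdgfrb* is lower in every mutant heart than in every control heart of the same stage, and *Eln* is at 7.88 and 8.35 in 2 of the mutant hearts at E11.5.

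*Pdgfrb*, the receptor through which mural cells are recruited, was the gene whose hearts separated by genotype. At E13.5 it measured 10.22, 10.11, 10.12 and 10.26 in the mutant hearts, against 10.49, 10.33, 10.33 and 10.35 in the control hearts. The highest mutant heart thus lay below the lowest control heart, by less than the range of either group. The mean mutant level was 87.3% of the control level (log2 FC −0.20, 95% interval −0.40 to 0.01, limma adjusted p = 1.00). At E11.5 the receptor measured 9.35, 9.26, 9.56 and 9.56 in mutant hearts and 9.80, 9.57, 9.65 and 9.69 in control hearts. Again the groups did not overlap, although the 2 highest mutant hearts and the lowest control heart almost met. The mean mutant level there was 84.6% of the control level (log2 FC −0.24, 95% interval −0.44 to −0.04, limma adjusted p = 0.419).

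Averaged over both stages in a comparison added after these values had been seen, the *Pdgfrb* log2 FC was −0.22 (95% interval −0.36 to −0.08, limma adjusted p = 0.314). None of the 10 genes was called in this averaged comparison, in which 0.416% of all genes were. At both stages the difference was under the fold threshold.

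**Figure D2:**
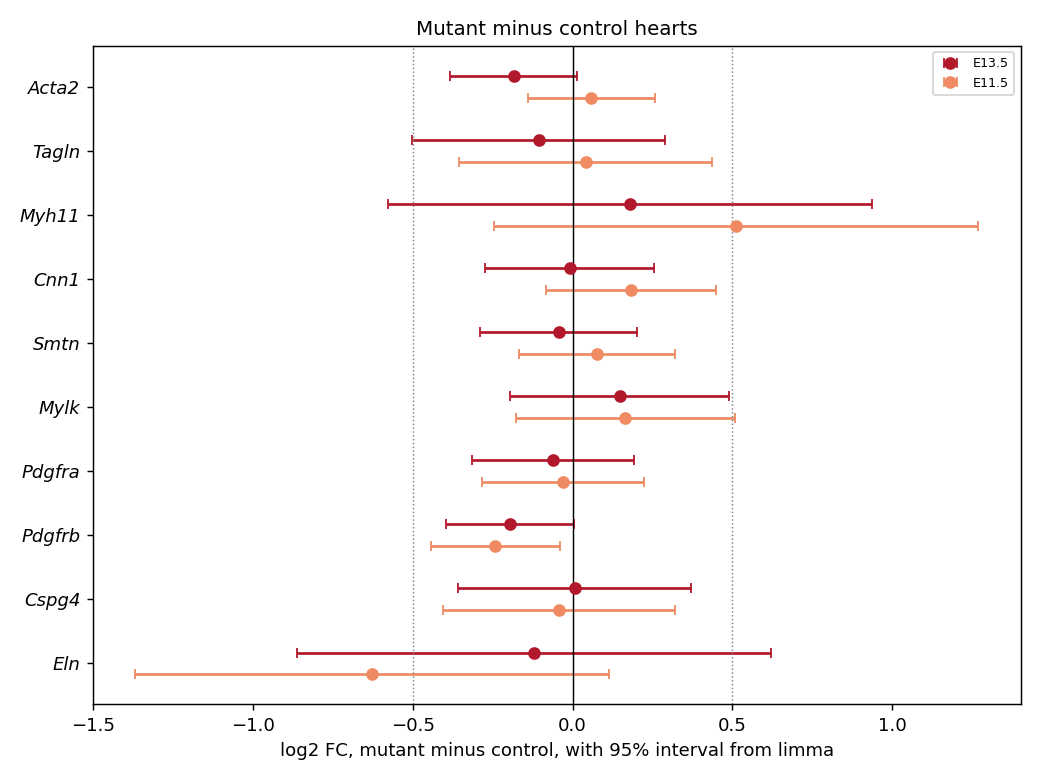
Log2 FC of mutant against control hearts (x axis, 95% interval from limma) for the 10 genes at E13.5 and E11.5, with dotted lines at the threshold of 0.5 in each direction. No gene was called, and the intervals are widest for *Myh11* and *Eln* (−1.37 to 0.11 for *Eln* at E11.5).

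None of the markers of other cell types was called for genotype at either stage, and no list was tested as a set. Values of some lists are given here beside those of *Pdgfrb*. In each of them the hearts of the genotypes overlapped at E13.5, at E11.5 or at both. The 8 markers of cushion mesenchyme, the tissue that forms the valves, had lower mean values in mutant hearts for 8 of 8 at E13.5 (median log2 FC −0.22) and 7 of 8 at E11.5 (median −0.33), beside a median of 0.00 over all genes at both stages. Their mean deviation from the 16-heart mean ranged from −0.42 to −0.06 in mutant and −0.09 to 0.20 in control hearts at E13.5, and from −0.22 to 0.03 in mutant and 0.12 to 0.27 in control hearts at E11.5. The cushion values thus overlapped at E13.5 and were apart at E11.5. *Hapln1*, a link protein of the cushion matrix, differed by −0.74 at E13.5 and −0.69 at E11.5. In the average of both stages *Hapln1* was called lower, as was *Ednrb* among the neural crest and glia markers, where 0.416% of all genes were called. The 8 epicardial markers had higher means in the mutants for 8 of 8 at both stages (median log2 FC 0.32 at E13.5 and 0.25 at E11.5), with 0 called. Their mean deviation spanned −0.06 to 0.92 in mutant and −0.23 to 0.04 in control hearts at E13.5, and −0.27 to 0.35 in mutant and −0.41 to −0.07 in control hearts at E11.5. Of 8 endothelial markers, 6 had lower means in mutants at E13.5 (median log2 FC −0.13), where their mean deviation was 0.08 to 0.25 in mutant hearts and, without overlap but by a very small margin, 0.25 to 0.32 in control hearts. At E11.5 it was −0.27 to −0.11 in mutant and −0.35 to −0.20 in control hearts. The 4 measured markers of neural crest and glia lay at −0.15 to 0.16 in mutant and −0.09 to 0.14 in control hearts at E13.5, and, without overlap by a small margin, at −0.17 to 0.07 in mutant and 0.07 to 0.13 in control hearts at E11.5. The 6 measured erythroid markers had lower means in mutants for 4 of 6 at E13.5 (median log2 FC −0.17) and 6 of 6 at E11.5 (median −0.27), with overlapping hearts at both stages. The part of these tissues in the *Pdgfrb* values was not tested.

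**Figure D3:**
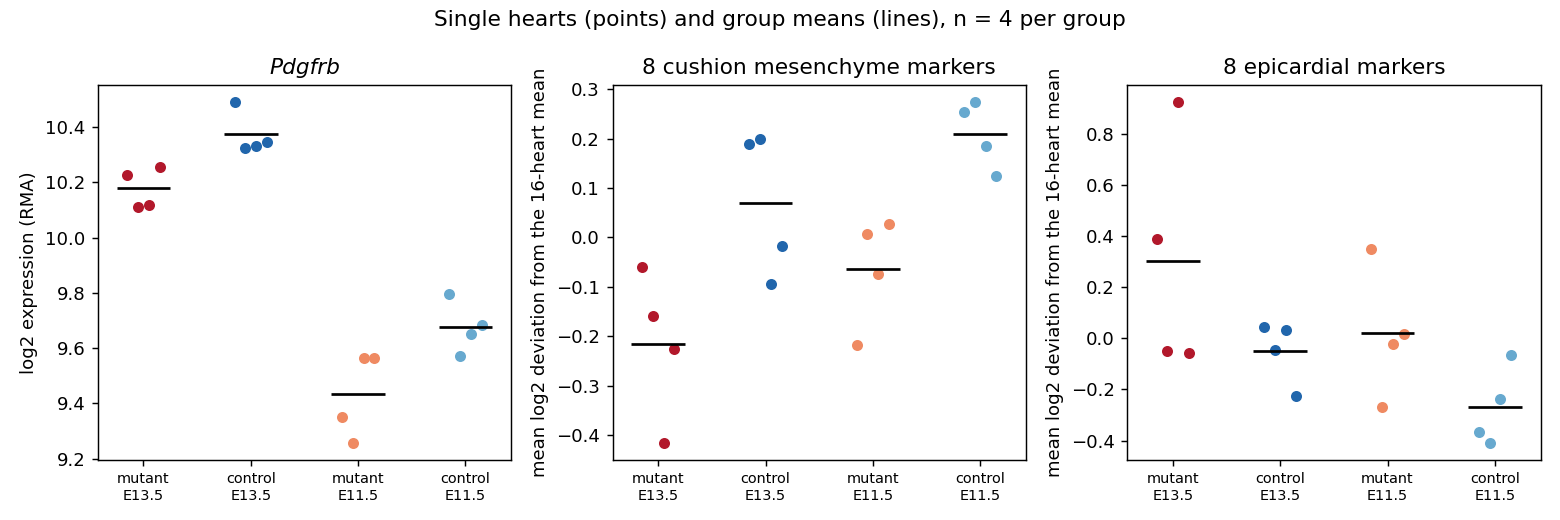
*Pdgfrb* log2 expression (left) and the mean log2 deviation from the 16-heart mean of 8 cushion mesenchyme markers (middle) and 8 epicardial markers (right), in single hearts (points) with group means (lines, n = 4). The cushion markers span −0.22 to 0.03 in mutant and 0.12 to 0.27 in control hearts at E11.5, where *Pdgfrb* is also lower in the mutants.

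The other receptor, *Pdgfra*, showed no such separation. Its values overlapped at E13.5 (10.08 to 10.47 in mutant and 10.20 to 10.51 in control hearts) and at E11.5 (10.04 to 10.38 in mutant and 10.10 to 10.38 in control hearts). The log2 FC of *Pdgfra* was −0.06 at E13.5 (95% interval −0.31 to 0.19) and −0.03 at E11.5 (−0.28 to 0.22), so a difference of the called size lay outside both intervals. *Cspg4* measured 8.90 to 9.33 in mutant and 8.95 to 9.31 in control hearts at E13.5, and 9.04 to 9.91 in mutant and 9.33 to 9.57 in control hearts at E11.5. Its intervals (−0.36 to 0.37 at E13.5 and −0.41 to 0.32 at E11.5) also stayed within 0.5 on either side of no difference. Among the 4 PDGF ligands, none was called for genotype. *Pdgfc*, a ligand of *Pdgfra*, had a log2 FC of −0.38 at E13.5 and −0.18 at E11.5, and *Pdgfb*, the ligand that recruits mural cells, had 0.16 and 0.27. *Pdgfa*, also a ligand of *Pdgfra*, went the other way from *Pdgfc*, at 0.25 and 0.09. Its mutant hearts at E13.5 (10.91 to 11.04) lay above every control heart (10.57 to 10.78), and the genotypes overlapped at E11.5. *Pdgfd* had 0.01 and −0.16.

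Of the 6 contractile genes, *Acta2* came closest to a difference at E13.5. Mutant hearts had *Acta2* values of 13.38, 13.25, 13.17 and 13.30, and control hearts 13.25, 13.52, 13.60 and 13.47. All but 1 of the control hearts lay above every mutant heart, control replicate 1 lying among the mutants (log2 FC −0.18, 95% interval −0.38 to 0.01, limma adjusted p = 1.00). At E11.5 *Acta2* ran from 13.12 to 13.29 in mutant and from 13.10 to 13.27 in control hearts (log2 FC 0.06). The protein is nearly identical to the cardiac, skeletal and enteric actins, and how far this probe set separates their transcripts is not given in the sources used here.

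*Myh11*, the smooth muscle myosin, varied more between hearts than any other contractile gene. At E11.5 it measured 6.50, 7.63, 6.84 and 8.55 in the mutant hearts and 6.90, 7.46, 6.56 and 6.56 in the control hearts. Mutant replicates 2 and 4 held the highest values, replicate 3 lay within the control range and replicate 1 just below it (log2 FC 0.51, 95% interval −0.24 to 1.27, limma adjusted p = 0.710). At E13.5 *Myh11* ran from 6.79 to 7.47 in mutant and from 6.54 to 7.34 in control hearts (log2 FC 0.18). *Tagln* differed by −0.11 at E13.5 and 0.04 at E11.5, *Cnn1* by −0.01 and 0.18, *Smtn* by −0.04 and 0.08, and *Mylk* by 0.15 and 0.17, each with overlapping groups and an interval that took in 0. Intervals of *Cnn1*, *Smtn* and *Acta2* lay within 0.5 of no difference at both stages, whereas those of *Myh11* at both stages, *Tagln* at E13.5 and *Mylk* at E11.5 did not.

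Other genes of the contractile apparatus gave no call for genotype either, 0 of 20 at both stages (median log2 FC 0.02 at E13.5 and 0.05 at E11.5). The smallest p-values at E11.5 belonged to *Synpo2*, an actin-bundling protein (−0.35, adjusted p = 0.265), and *Cald1*, which encodes caldesmon (0.33, adjusted p = 0.317). None of 16 regulators of smooth muscle differentiation was called. The nearest was *Jag1*, a Notch ligand, at 9.63, 9.30, 9.19 and 9.32 in mutant against 9.75, 9.99, 10.07 and 9.79 in control hearts at E11.5. Every mutant heart was below every control heart there, but the difference missed the threshold (log2 FC −0.54 ± 0.12 (SE), limma adjusted p = 0.0775). It was called in 4 of 29 alternatives, over which the *Jag1* log2 FC ran from −0.63 to −0.43. *Myocd*, the cofactor that switches on contractile genes, differed by 0.13 at E13.5 and 0.20 at E11.5 without passing the test. *Prrx1* differed by −0.57 and −0.55, also without a call. Its mutant hearts (8.11 to 8.94) lay below every control heart (9.14 to 9.41) at E13.5 and overlapped them at E11.5. At an unadjusted limma p under 0.05 there were 2 of 16 regulators at E13.5, beside 3.94% of all genes, and 6 of 16 at E11.5, beside 9.34%.

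A pericyte gene outside the 10 did pass. *Rgs5*, a regulator of G protein signalling used as a pericyte marker, measured 9.16, 7.04, 8.70 and 7.73 in mutant and 9.92, 9.80, 10.57 and 10.48 in control hearts at E11.5. All mutant hearts lay below all control hearts, replicates 2 and 4 by the widest margin (log2 FC −2.04 ± 0.38 (SE), limma adjusted p = 0.0340). The *Rgs5* difference kept its sign in 29 of 29 alternatives (−2.37 to −1.27) but its call in 16, and the call was lost when 1 heart was left out that was any control at E11.5, replicate 2 or 4 of the mutants at E11.5, or replicate 2 of the controls at E13.5 (adjusted p of 0.0523 to 0.104). Without mutant replicates 2 and 4 together it was −1.27 (adjusted p = 0.111). The call was also lost with only the E11.5 hearts fitted (limma adjusted p = 0.293) and with the Y-linked covariate (0.0954). Array weights (0.0739) and leaving out the 3 arrays that stood apart (0.108) ended it too. *Rgs5* was the only call among 13 further pericyte genes at E11.5, where 0.251% of all genes were called. The paper lists it at that stage from these same arrays, which is not separate support. At E13.5 none of the 13 was called, beside 0.0451% of all genes, *Rgs5* itself differing by 0.32. *Abcc9*, a potassium channel subunit of pericytes, had a log2 FC of −0.48 at both stages without passing the test.

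Elastin did not separate the genotypes, but it separated the mutant hearts at E11.5 from each other. *Eln* measured 9.69, 7.88, 9.76 and 8.35 in the mutant hearts and 9.57, 9.32, 9.67 and 9.61 in the control hearts at that stage. Replicates 1 and 3 of the mutants lay above every control heart, and replicates 2 and 4 below every one of them. The group SD was 0.95 in mutant and 0.15 in control hearts (n = 4 each), and the log2 FC of −0.63 had an interval of −1.37 to 0.11 (limma adjusted p = 0.610). Without mutant replicates 2 and 4, a choice made after their values were seen, the *Eln* log2 FC at E11.5 turned to 0.18. At E13.5 *Eln* ran from 10.52 to 10.98 in mutant and from 10.45 to 11.47 in control hearts (log2 FC −0.12).

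For the 13 other elastic fibre genes, *Fbln5* among them, the mean deviation from the 16-heart mean differed between the mutant hearts at E11.5. It was −0.11, −0.57, −0.11 and −0.40 in mutant replicates 1 to 4, against −0.34 to −0.20 in the control hearts. Replicates 2 and 4 were thus the lowest in this mean, and how far *Fbln5* carries that order was not tested. *Fbln5* and *Sfrp2* are described because they were the genes nearest to *Eln* over all hearts, so that their likeness to it follows from that choice. *Fbln5*, whose product fibulin-5 binds elastin during fibre assembly, measured 10.12, 8.24, 9.90 and 8.54 in the mutant hearts at E11.5, against a lowest control value of 9.35. Relative to the control mean, mutant replicates 2 and 4 were at −1.54 and −1.24 for *Fbln5*, against 0.34 and 0.12 for replicates 1 and 3. For *Lum*, which encodes the collagen-binding proteoglycan lumican, the same 2 hearts were at −1.80 and −2.45, and for *Sfrp2*, a secreted Wnt modulator, at −1.23 and −1.34. In contrast, *Myh11* was highest in them (0.76 and 1.68 above the control mean), and replicate 4 also had the highest E11.5 value of *Tagln* (11.93), *Cnn1* (12.56) and *Cspg4* (9.91). *Pdgfrb* did not follow the split, with deviations of −0.32, −0.42, −0.11 and −0.11 in mutant replicates 1 to 4. In the mean of 7 fibroblast markers, *Lum* among them, mutant replicates 2 and 4 stood low, at −0.60 and −0.62. The other mutants were at 0.07 and −0.08, and the control hearts at −0.29 to −0.19. How far *Lum* alone carries this mean was not tested. Replicate 4 is 1 of the 3 arrays that stood apart. The part of fibroblasts or of the dissection in this split was not tested.

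**Figure D4:**
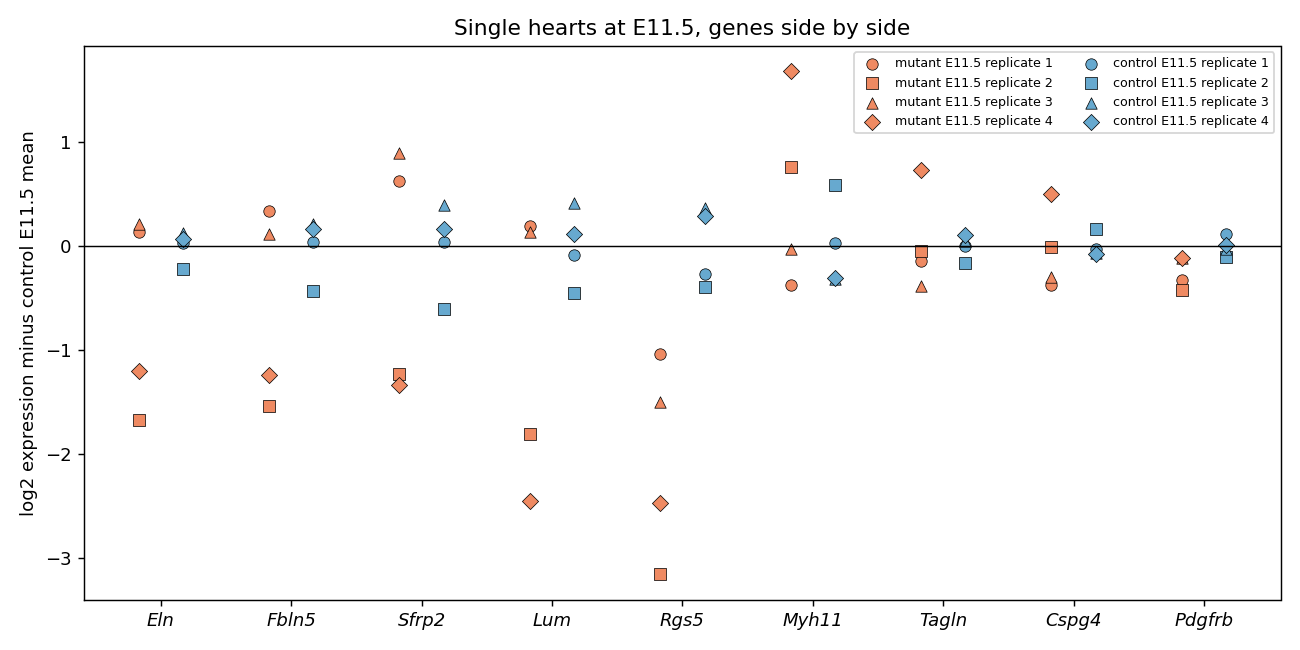
Log2 expression minus the control E11.5 mean (y axis) of 9 genes in each heart at E11.5, with mutant and control replicates shown by colour and symbol. Mutant replicates 2 and 4 lie between −1.20 and −3.16 for *Eln*, *Fbln5*, *Sfrp2*, *Lum* and *Rgs5*, and at 0.76 and 1.68 for *Myh11*.

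The second question was how the genes differed between the stages, which were compared within each genotype. At E13.5 against E11.5, 3 of 10 genes were called in mutant hearts, where 29.6% of all genes were, and 3 of 10 in control hearts, where 28.8% were. By direction, 2 of 10 were higher and 1 of 10 lower in mutants, beside 16.8% and 12.8% of all genes, and 3 of 10 were higher and 0 of 10 lower in controls, beside 16.5% and 12.3%. The members' share was thus close to that of all genes. *Pdgfrb* and *Eln* rose in both genotypes, *Smtn* rose in control hearts, and *Tagln* fell in mutant hearts. The hearts of the 2 stages were fully apart for 3 of 10 genes in mutants (*Smtn*, *Pdgfrb* and *Eln*), beside 39% of all genes, and for 6 of 10 in controls (these and *Tagln*, *Mylk* and *Cspg4*), beside 42.3%. Every heart enters both a stage and a genotype comparison, so the 2 kinds of comparison share hearts. Arrays spread more widely at E13.5 (SD over probe sets 2.38 to 2.42) than at E11.5 (2.18 to 2.26), and stage and any difference in array processing cannot be told apart, since the sources used here give no hybridisation dates.

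*Eln* had the largest stage change of the 10 genes in both genotypes. In mutant hearts it measured 10.52, 10.98, 10.77 and 10.98 at E13.5, against 9.69, 7.88, 9.76 and 8.35 at E11.5, a 3.72-fold rise (log2 FC 1.89 ± 0.35 (SE), limma adjusted p = 0.00058). In control hearts it measured 10.45, 10.68, 11.13 and 11.47 at E13.5, against 9.57, 9.32, 9.67 and 9.61 at E11.5, a 2.62-fold rise (log2 FC 1.39, adjusted p = 0.00523). No E13.5 heart was as low as any E11.5 heart of its genotype. Without mutant E11.5 replicates 2 and 4 the mutant rise was smaller at 1.09 on the log2 scale and was still called. *Pdgfrb* rose 1.67-fold in mutant hearts (log2 FC 0.74 ± 0.09 (SE), adjusted p = 2.9e-05) and 1.62-fold in control hearts (log2 FC 0.70, adjusted p = 5.0e-05). Its E13.5 hearts lay between 10.11 and 10.49, and its E11.5 hearts between 9.26 and 9.80.

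**Figure D5:**
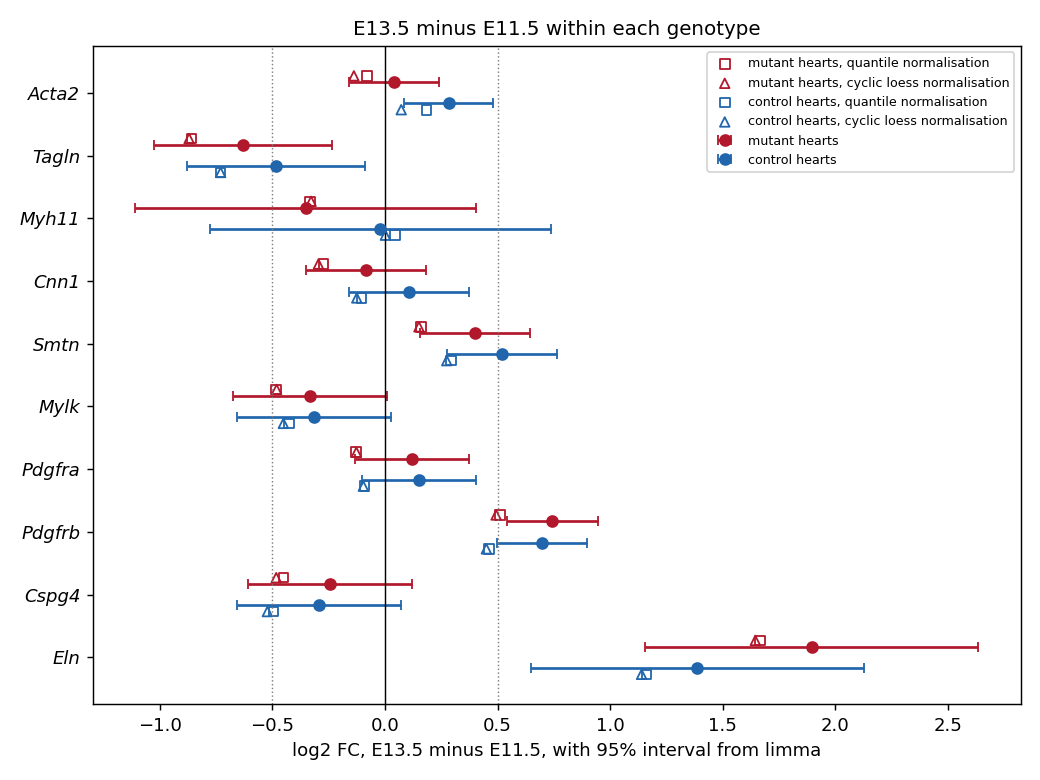
Log2 FC of E13.5 against E11.5 (x axis, filled points with 95% intervals from limma) for the 10 genes in mutant and control hearts, with open symbols for 2 further normalisations of the arrays and dotted lines at 0.5 in each direction. *Eln* (1.89 in mutants, 1.39 in controls) and *Pdgfrb* (0.74 and 0.70) lie to the right under every normalisation, whereas *Acta2* in mutants, *Cnn1* in controls and *Pdgfra* in both sit on different sides of 0.

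After quantile normalisation, which gives all arrays the same distribution, the *Pdgfrb* change was 0.51 in mutant and 0.46 in control hearts, so that it no longer passed the fold threshold in controls (adjusted p = 0.00218). With cyclic loess it was 0.49 in mutants and 0.45 in controls, under the threshold in both.

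Of the 6 contractile genes, 1 was called lower at E13.5 in mutants (12.8% of all genes were) and 1 higher in controls (16.5% of all genes). *Tagln* measured 10.91, 10.53, 10.44 and 10.57 in mutant hearts at E13.5, against 11.06, 11.16, 10.82 and 11.93 at E11.5. The heart at 10.91 overlapped the E11.5 range, and E11.5 replicate 4 stood above all others (log2 FC −0.63 ± 0.19 (SE), limma adjusted p = 0.0133). Without that replicate the *Tagln* change in mutants was −0.40, and the call was lost. Control hearts had *Tagln* values of 10.55, 10.84, 10.69 and 10.79 at E13.5, against 11.20, 11.04, 11.26 and 11.31 at E11.5. These stages did not overlap (log2 FC −0.48, adjusted p = 0.0477), the size falling short of the threshold by a small margin. With quantile normalisation *Tagln* was called in both genotypes (−0.86 in mutants and −0.73 in controls).

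*Smtn* went the other way. It measured 10.03, 10.25, 10.12 and 10.31 in control hearts at E13.5, against 9.63, 9.53, 9.92 and 9.54 at E11.5 (log2 FC 0.52 ± 0.11 (SE), limma adjusted p = 0.00222). In mutant hearts *Smtn* was 9.94, 10.26, 10.15 and 10.18 at E13.5, against 9.61, 9.69, 9.92 and 9.71 at E11.5. The E13.5 hearts were the higher ones in both genotypes, and the mutant change of 0.40 (adjusted p = 0.0114) was under the fold threshold. Quantile normalisation brought the control change to 0.29 (adjusted p = 0.0699), which ended that call. So did leaving out any single one of 4 control hearts, replicates 2 and 4 at E11.5 and replicates 2 and 5 at E13.5, with *Smtn* changes of 0.48, 0.48, 0.50 and 0.48. *Acta2* was higher at E13.5 in control hearts by 0.28 (adjusted p = 0.0237) and in mutant hearts by 0.04 (adjusted p = 0.754), under the threshold in both, and after quantile normalisation the mutant value turned to −0.08.

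The remaining members gave no call with stage. *Mylk* differed by −0.33 in mutant and −0.31 in control hearts, and *Cspg4* by −0.24 and −0.29, each under the threshold and with 95% intervals that took in 0. *Myh11* differed by −0.35 in mutants (95% interval −1.11 to 0.40) and by −0.02 in controls (−0.78 to 0.74). *Cnn1* (−0.08 and 0.11) and *Pdgfra* (0.12 and 0.15) lay near 0, and under quantile normalisation the *Pdgfra* values turned to −0.13 and −0.09 and the control value of *Cnn1* to −0.10.

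Among the other genes of these pathways, the PDGF ligands, the elastic fibre genes and part of the contractile apparatus had members that rose with stage. Beside the counts below, 16.8% of all genes rose and 12.8% fell in mutant hearts, and 16.5% rose and 12.3% fell in control hearts. Of the 4 ligands, 3 rose in mutants and 3 in controls, with a median log2 FC of 0.81 and 0.77, beside a median of 0.04 over all genes in both. *Pdgfa*, the main ligand of *Pdgfra*, measured 10.99, 10.94, 10.91 and 11.04 in mutant hearts at E13.5, against 9.78, 9.68, 9.82 and 9.89 at E11.5 (log2 FC 1.18, adjusted p = 8.7e-07). *Pdgfb*, the ligand of *Pdgfrb*, rose by 0.81 in mutants and 0.92 in controls, and *Pdgfd*, a further ligand of that receptor, by 0.80 and 0.63. *Pdgfc* was the ligand that did not pass (0.10 and 0.30).

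Of 13 measured elastic fibre genes other than *Eln*, 7 rose and 0 fell in mutant hearts, and 6 rose and 0 fell in control hearts (median log2 FC 0.52 and 0.46). They included *Fbln5* (1.84 in mutants and 1.21 in controls), the cross-linking enzyme gene *Lox* (1.02 and 0.97) and the microfibril gene *Mfap4* (1.14 and 1.35). Of 20 further contractile genes, 8 rose and 1 fell in mutants, and 7 rose and 1 fell in controls (median 0.23 and 0.39), with *Tagln2* at 11.66 to 11.99 in mutant hearts at E13.5, against 9.91 to 10.35 at E11.5 (log2 FC 1.69), and *Tpm1*, a tropomyosin also used by cardiomyocytes, at 0.87 in mutants and 0.91 in controls. The gene that fell in both was *Synpo2*. Of 13 further pericyte genes, 3 rose and 1 fell in mutants, and 2 rose and 2 fell in controls, shares near those of all genes. *Mcam*, a surface protein of mural and endothelial cells, rose by 0.69 and 0.97, and *Kcnj8*, a pericyte potassium channel, by 0.77 and 1.45. *Rgs5* rose by 1.43 in mutant hearts and had a log2 FC of −0.93 in control hearts, which did not pass (adjusted p = 0.0580). It was called there in 11 of 29 alternatives, quantile and cyclic loess normalisation among them. *Notch3*, the mural cell Notch receptor, fell by 0.76 in mutant and 0.70 in control hearts on the log2 scale. Of the 16 regulators, 2 rose and 1 fell in mutants and 1 rose and 1 fell in controls, shares below those of all genes. *Heyl*, a target of Notch signalling, rose by 0.69 and 0.57.

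Of these further genes, *Fbln5*, *Lox*, *Pdgfa*, *Pdgfb*, *Tagln2*, *Tpm1* and *Notch3* kept their stage calls in both genotypes under all 29 alternatives. *Kcnj8* lost its call in mutants without replicate 2 at E11.5 or replicate 1 or 3 at E13.5, its log2 FC over all alternatives running from 0.60 to 0.89 with an adjusted p up to 0.111. *Synpo2* lost its call in mutants without replicate 4 at E11.5 or replicate 2 at E13.5 (−0.75 to −0.43 over all alternatives). In controls *Pdgfd* lost it without replicate 1 or 2 at E11.5 (0.50 to 0.77 over all alternatives), and *Heyl* without replicate 1 at E11.5 or replicate 4 at E13.5 (0.42 to 0.68). *Rgs5* and *Mfap4* lost theirs in mutants without E11.5 replicates 2 and 4 together (0.66 and 0.61). Under quantile or cyclic loess normalisation *Kcnj8* and *Mcam* in mutants and *Heyl* in controls also lost their calls.

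Among cell type markers, 3 of 7 fibroblast, 2 of 8 endothelial and 2 of 8 epicardial markers were called higher at E13.5 in each genotype, beside 16.8% of all genes in mutants and 16.5% in controls. Of 10 cardiomyocyte markers, 1 was called higher in mutants and 2 in controls, and of 6 measured erythroid markers, which all had lower means at E13.5, 1 was called lower in mutants and 2 in controls. For the 7 fibroblast markers the mean deviation from the 16-heart mean spanned 0.11 to 0.53 in mutant hearts at E13.5 and −0.62 to 0.07 at E11.5, and 0.11 to 0.32 in control hearts at E13.5 and −0.29 to −0.19 at E11.5. For the 8 endothelial markers it spanned 0.08 to 0.25 in mutants at E13.5 and −0.27 to −0.11 at E11.5, and 0.25 to 0.32 in controls at E13.5 and −0.35 to −0.20 at E11.5. The part of changing cell numbers in the rise of *Eln* and *Pdgfrb* was not tested.

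Whether the genotype effect differed between the stages was tested as an interaction in the same fit. None of the 10 genes passed, and 0% of all genes were called, with 3.96% at an unadjusted p under 0.05 and 0 of 10 members among them. The difference between the effects at E13.5 and E11.5 ranged over the members from −0.33 for *Myh11* to 0.51 for *Eln*, and the smallest unadjusted p was 0.0842, for *Acta2*. For *Pdgfrb* it was 0.05 (95% interval −0.24 to 0.33), and for *Eln* the interval reached from −0.54 to 1.55.

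The 10 genes did not share a single profile. Likeness was measured as the root mean square difference of mean-centred log2 values over the 16 hearts, where a smaller value is more alike. The closest pair of members was *Acta2* and *Cnn1* (0.154), and *Acta2* and *Pdgfra* came next (0.193). Among 19936 other genes, those nearest to *Eln* were *Fbln5* (0.147), *Sfrp2* (0.297) and *Atg4a* (0.319), beside an SD of 0.97 for *Eln* itself. The nearest to *Pdgfrb* were *Asb4* (0.0926), *Tbc1d20* (0.0937) and the metalloprotease gene *Adamts1* (0.0949), to *Acta2* they were *Pam* (0.0810), *Aplp2* (0.0819) and *Cast* (0.0850), and to *Myh11* they were *Nr4a3* (0.318), *Rora* (0.335) and *Vgll1* (0.353). Genes with little variation are close to many others by this measure, so the distances for *Acta2*, whose SD was 0.138, say less than those for *Eln*. From *Acta2* to *Cnn1* and to *Pdgfra* the distance was larger than that SD, so a flat profile would have been nearer to *Acta2* than either. *Adamts1* measured 10.11, 10.04, 10.07 and 10.17 in mutant hearts at E13.5, against 10.39, 10.24, 10.47 and 10.39 in control hearts, apart in the same direction as *Pdgfrb* but with no call (log2 FC −0.27). Since *Adamts1* was picked for its nearness to *Pdgfrb* over these same hearts, the shared direction largely follows from that choice.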

How the data were processed

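The authors deposited log2 expression values made by RMA (affy package), a method of background correction, between-array normalisation and probe summary. They name limma for their own tests. Versions, and whether both stages were normalised together, are not given in the sources used here. The 34760 probe sets of 16 arrays had no missing values, and no value was changed. Probe sets were named through the platform annotation: 21640 named 1 gene, 1321 several and 11799 none, and 21553 of the 21640 matched a mouse gene table by Entrez ID. Where a gene had several probe sets, the one with the highest mean stood for it.

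All 16 arrays entered 1 fit in limma 3.58.1 (R 4.3.3), which estimated the 4 group means and moderated the variances with default settings, and p-values were adjusted over all 34760 probe sets by Benjamini-Hochberg, with shares of genes called given over the 19937 genes. The thresholds follow the study's methods. Python 3.11.15 with matplotlib 3.10.9 made the figures. The fit was tested on simulated data with known changes. Arrays carry no read depth, and 4 hearts per group limit the precision.

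The members and gene lists were chosen with earlier results of these data known. Genes named were all 10 members, *Chd7*, up to 4 genes with the smallest p of each list in each comparison, and the 3 nearest genes of *Acta2*, *Myh11*, *Pdgfrb* and *Eln*. Alternatives were fits to the hearts of a comparison only, weights for arrays, a robust prior with a trend, normalisation by quantiles or cyclic loess, removal of dim probe sets (below percentile 40) or of those naming several genes, medians over probe sets of 1 gene, a replicate block, a Y-linked covariate, no fold threshold, and leaving out hearts.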

Additional observations from a re-analysis of the deposited data

Results flagged for a closer look

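*Pdgfrb* in control replicate 1 at E13.5 measured 10.49, away from the other 3 control hearts of that stage at 10.33 to 10.35. It was 1 of 40 sets of a gene and a group examined for a heart far from the rest of its group, and chance alone puts about 1 in 20 groups past the limit used (Dixon's 95% critical value). The same array was 1 of the 3 that stood apart from their stage. Without it the *Pdgfrb* log2 FC of mutant against control hearts at E13.5 was −0.16.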

How the results depend on the processing

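The count of members called for genotype was 0 at both stages, for the difference between stages and for the average of both stages, under every alternative and with each heart left out. For stage it was 2 or 3 in both genotypes with each heart left out, and 5 in control hearts without a threshold on the fold change. Dropping that threshold also added a call in mutant hearts, that of *Smtn* (0.40, limma adjusted p = 0.0114). *Eln* was called with stage in both genotypes under all alternatives (1.09 to 2.18 in mutants, 1.14 to 1.55 in controls). The *Pdgfrb* difference between genotypes stayed negative under all of them (−0.22 to −0.16 at E13.5, −0.37 to −0.18 at E11.5), with adjusted p of 0.209 or more at E11.5. In the average of both stages its adjusted p ran from 0.166 to 0.548. Replicate numbers did not pair the hearts (correlations of −0.10 to 0.03), and with them as a block the counts for stage were 3 and 3, those for genotype 0 and 0, and no member's call changed, while *Rgs5* lost its call at E11.5 (adjusted p = 0.118). The average of both stages, and leaving out mutant E11.5 replicates 2 and 4 together, were chosen after seeing the data.

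Changes of sign were found for small differences. For mutant against control hearts at E13.5, *Cnn1* turned to 0.061 with the replicate block and 0.019 with the Y-linked covariate, and *Cspg4* to −0.051 without the 3 arrays that stood apart. At E11.5, *Tagln* turned to −0.038 with the Y-linked covariate, and without those 3 arrays *Tagln* was −0.094, *Smtn* −0.0066 and *Pdgfra* 0.0064. Without mutant replicates 2 and 4, *Tagln* was −0.26, *Myh11* −0.20, *Pdgfra* 0.042 and *Eln* 0.18 at E11.5, and *Eln* 0.028 over both stages. For E13.5 against E11.5 in mutants, the same omission gave 0.36 for *Myh11*, 0.013 for *Cnn1* and 0.049 for *Cspg4*, and *Cnn1* was 0.021 without the 3 arrays. Quantile and cyclic loess normalisation gave −0.080 and −0.14 for *Acta2* and −0.13 and −0.13 for *Pdgfra* in mutants. In controls they gave −0.10 and −0.13 for *Cnn1*, −0.090 and −0.096 for *Pdgfra* and 0.044 and 0.0018 for *Myh11*, which was 0.045 with array weights and 0.082 without the 3 arrays. The cause of these shifts was not tested.

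Leaving out each heart in turn, mutant minus control at E13.5 ran from −0.13 to 0.049 for *Cnn1*, −0.094 to 0.021 for *Smtn*, −0.12 to 0.012 for *Pdgfra*, −0.060 to 0.080 for *Cspg4* and −0.28 to 0.058 for *Eln*. At E11.5 it ran from −0.19 to 0.18 for *Tagln*, −0.097 to 0.031 for *Pdgfra* and −0.22 to 0.066 for *Cspg4*. The change with stage ran from −0.65 to 0.037 for *Myh11* and −0.14 to 0.0043 for *Cnn1* in mutants, and from −0.18 to 0.18 for *Myh11* in controls. The *Tagln* call in mutants was also lost with only the mutant hearts fitted (adjusted p = 0.0591), and *Mylk* was called there without mutant E11.5 replicates 2 and 4 (−0.56, adjusted p = 0.0259). With cyclic loess normalisation *Cspg4* was called in controls (−0.52, adjusted p = 0.0308).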
